A study of Mus musculus with 11 samples.

Results

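The genes described are 10 transcripts for secreted non-proteolytic digestive enzymes of the mouse pancreas. They comprise 6 for fat digestion (Pnlip, Pnliprp1, Pnliprp2, Cel, Clps and Pla2g1b), 3 for starch digestion (Amy1, Amy2a5 and Amy2b) and 1 for RNA digestion (Rnase1). They were taken by gene symbol from a count table of 54532 genes, and all 10 were among the 14113 genes that passed the filter on low counts. Bulk polyadenylated RNA of whole pancreas of C57BL/6JRj mice was sequenced in 11 libraries, and the labels give each library its own mouse. The groups were 3 young (7 weeks) untreated, 2 aged (18 months) untreated, 3 young caerulein and 3 aged caerulein mice, and no allele or other agent is named for any of them. Caerulein, an analogue of the hormone cholecystokinin, was injected intraperitoneally at 125 µg/kg in 4 hourly doses, and treated libraries carry the label 5H. That label is the only time given here, because the notes on when the tissue was taken can be read in more than 1 way. The study asked how age alters the start of experimental pancreatitis.

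Acinar cells of the exocrine pancreas make these proteins in bulk, store them in zymogen granules and release them into the duct when cholecystokinin or its analogues stimulate them. Pancreatic lipase splits triglycerides and needs colipase to stay on a fat droplet coated with bile salts, whereas carboxyl ester lipase is activated by bile salts and phospholipase A2 cuts phospholipids. Pancreatic amylase cuts starch, pancreatic ribonuclease cuts RNA, and supramaximal caerulein is a common way to set off acute pancreatitis in rodents.

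Total counts per library ran from 14223190 to 26537091, and even the rarest of the 10 genes, Amy1, had 1227 to 3639 counts, so counting error was small beside the spread between mice. TMM scaling factors ran from 0.696 to 0.798 in 4 of the 5 untreated libraries, were 1.13 in the library of young untreated mouse 2, and ran from 1.05 to 1.29 in the 6 treated libraries. The library of young untreated mouse 2 stood apart: its 9 lymphoid markers summed to 178 CPM of the library total, against at most 1.65 in the other libraries, and its 8 adipocyte markers to 419 CPM against at most 35.6. The 8 acinar markers summed to 282334 to 307294 CPM in untreated and 226818 to 247475 CPM in caerulein libraries. The largest counts in that sum were those of the protease genes Ctrb1, Cela1, Cpa1 and Prss2. In young mice 6 of the 8 were called lower with caerulein, 1 (Ptf1a) higher and 1 did not pass. In aged mice 6 were called lower and 2 did not pass. All 8 duct markers were detected in all 11 libraries. Duct markers summed to 147 to 217 CPM in untreated and 397 to 524 CPM in caerulein libraries. They did not all move alike: at each age 4 of the 8 were called higher with caerulein, 1 was called lower and 3 did not pass (edgeR, as below). Over all genes tested, 27.5% were called higher and 24.7% lower in young mice, and 27% and 21.2% in aged mice. The caerulein results below move with the scaling factors and with the acinar and duct marker sums. The part of each in those results was not tested. In bulk tissue, fewer cells of a type and less RNA per cell cannot be told apart.

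The promoter sequences are shown because the lipase and amylase genes sit in 2 clusters and because the transcription factors that drive acinar genes bind known short motifs. PTF1, the acinar complex built on Ptf1a with Rbpjl, binds an E-box (CANNTG) together with a TC-box (TTTCCCA), and the nuclear receptor Nr5a2 binds AAGGTCA. Motifs were searched on both strands in the 250 bases before each RefSeq gene start on GRCm38.p6, where 9 of the 10 genes were matched, Clps being the exception, and Amy1 had 2 start sites. The bases are given 5′ to 3′ on the gene's strand, ending at the base before the start, with E-boxes, TC-boxes and TATAAA in capitals. Cel, on chromosome 2 (chr2:28563404-28563653, minus strand), is shown over all 250 bases, and the others over the last 150: Pnlip (chr19:58670215-58670364, plus strand), Pnliprp1 (chr19:58728737-58728886, plus), Rnase1 (chr14:51146768-51146917, minus), Amy2a5 (chr3:113258700-113258849, minus) and Amy2b (chr3:113156728-113156877, minus).
Cel: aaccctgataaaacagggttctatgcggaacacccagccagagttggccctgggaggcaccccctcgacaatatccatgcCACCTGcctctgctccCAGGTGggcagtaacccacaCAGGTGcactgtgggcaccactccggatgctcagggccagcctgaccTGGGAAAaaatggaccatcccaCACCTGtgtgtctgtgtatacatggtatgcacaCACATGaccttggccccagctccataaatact
Pnlip: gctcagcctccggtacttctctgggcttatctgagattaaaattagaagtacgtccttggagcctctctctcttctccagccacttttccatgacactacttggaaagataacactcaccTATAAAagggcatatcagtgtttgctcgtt
Pnliprp1: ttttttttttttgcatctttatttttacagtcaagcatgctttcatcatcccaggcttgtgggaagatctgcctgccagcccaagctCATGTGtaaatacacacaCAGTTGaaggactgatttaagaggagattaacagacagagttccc
Rnase1: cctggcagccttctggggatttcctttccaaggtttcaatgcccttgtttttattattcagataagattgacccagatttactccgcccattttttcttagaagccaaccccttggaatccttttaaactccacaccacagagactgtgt
Amy2a5: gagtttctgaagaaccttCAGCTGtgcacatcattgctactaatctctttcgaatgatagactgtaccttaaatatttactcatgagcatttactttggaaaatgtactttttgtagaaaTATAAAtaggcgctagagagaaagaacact
Amy2b: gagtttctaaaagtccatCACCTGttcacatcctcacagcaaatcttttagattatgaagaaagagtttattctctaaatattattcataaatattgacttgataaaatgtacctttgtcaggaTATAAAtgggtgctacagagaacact

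Cel held 5 E-boxes, 4 of them of the form CACCTG read on either strand, and a TC-box on the opposite strand from -87 to -81. It was the 1 gene of the 9 matched that held both motifs, as 4.65% of 32851 promoters of the same length did. Cel was also the 1 gene with AAGGTCA (4.08% of all promoters), which overlaps its last E-box. An E-box of any kind was in 5 of the 9 genes and in 66.2% of all promoters, and CACCTG was in 3 of 9 (Cel, Pnliprp2 and Amy2b) against 17.2%. TATAAA was in 4 of 9 (Pnlip, Amy1, Amy2a5 and Amy2b) against 12.4%. It lay from -30 to -25 in Pnlip and Amy2a5 and from -26 to -21 in Amy2b, and the Amy2a5 and Amy2b windows both carried an E-box from -132 to -127 (CAGCTG and CACCTG). The windows of Pnlip, Pla2g1b, Amy1 and Rnase1 held no E-box, TC-box or AAGGTCA. These are letter matches only, and no binding was measured here.

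The 10 transcripts together took 19.2% ± 2.23 (SD, n = 3) of the counts assigned to genes in young untreated pancreas and 21.2% ± 0.877 (n = 2) in aged untreated pancreas. After caerulein they took 14.5% ± 0.579 (n = 3) in young and 14.5% ± 0.766 (n = 3) in aged mice. The lowest untreated share, 16.6% in young untreated mouse 2, was above the highest treated share, 15.3% in aged caerulein mouse 1. Most of this was fat digestion: without treatment its 6 genes held 15.5% ± 1.73 (n = 3) of the counts of young mice and 16.4% ± 0.890 (n = 2) of those of aged mice. With caerulein the shares were 12.6% ± 0.522 (n = 3) for young and 12.2% ± 0.266 (n = 3) for aged mice. The 10 leave out the amylase genes Amy2a1, Amy2a2, Amy2a3 and Amy2a4. In young untreated mice the amylase share was 1.95% for the 3 genes described and 3.84% for all 7.

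Per length, in the authors' FPKM values, Pnlip led the 10 genes in 3 of the 4 groups, at 57866 ± 19556 (SD, n = 3) FPKM in young untreated mice, and at 34302 ± 3919 (n = 3) for young and 31645 ± 4190 (n = 3) for aged mice given caerulein. In aged untreated mice Clps stood at 59121 ± 3927 (n = 2) FPKM beside 56400 ± 4777 (n = 2) for Pnlip. That gap was within the spread between mice, but Clps was above Pnlip in each library (56344 against 53022 in mouse 2, 61898 against 59777 in mouse 3). In untreated young mice Clps (40636 ± 9075 FPKM, n = 3) came next, then Cel (22134 ± 6942) and Rnase1 (21414 ± 6005), whose ranges overlapped, then Pnliprp1 (15098 ± 5400) and Amy2b (10372 ± 4553). Pnliprp2 (2595 ± 960), Pla2g1b (2378 ± 1046) and Amy2a5 (1895 ± 901) were also within each other's ranges, and Amy1 was lowest at 24.5 ± 9.18 FPKM. Caerulein changed the order: in treated young mice Pnliprp1 (12631 ± 501 FPKM, n = 3) ranked above Clps (10065 ± 795) and Cel (8187 ± 599), and the 3 libraries of Pnliprp1 did not overlap those of Clps. In treated aged mice the ranges of Clps (13068 ± 1852), Pnliprp1 (12094 ± 1639) and Cel (12011 ± 520) overlapped, and Clps was above Pnliprp1 in each library. Among all genes Pnlip ranked between 3 and 5 by group mean FPKM, and Amy1 between 252 and 464.

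**Figure D1:**
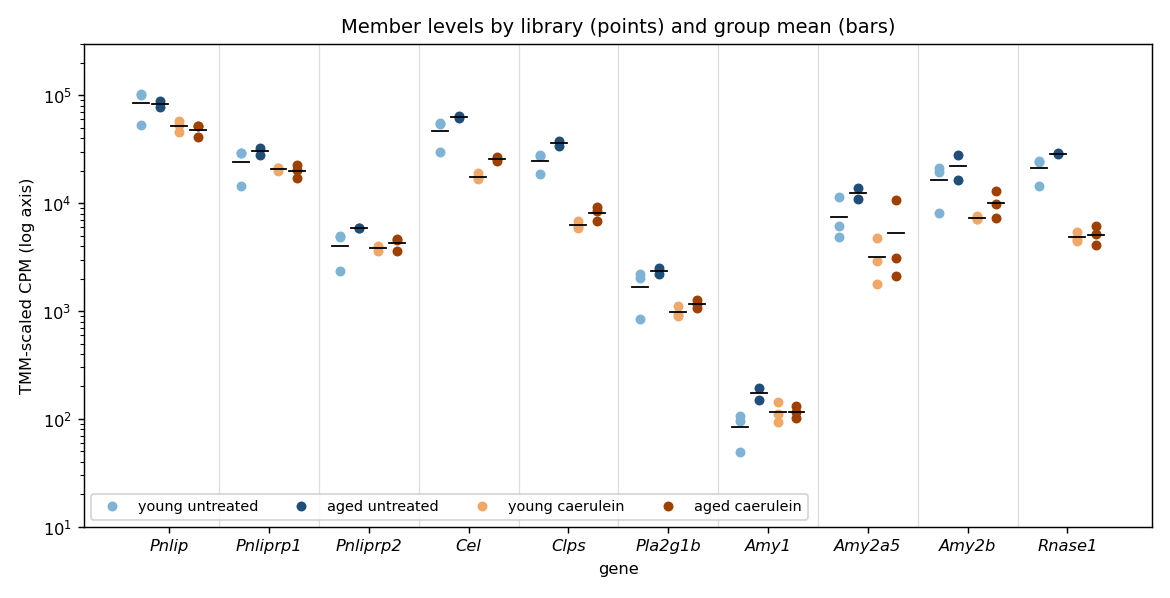
TMM-scaled CPM (log axis) of each gene in every library, coloured by group, with a short bar at each group mean. Clps, Cel and Rnase1 are lower in all caerulein libraries than in any untreated library, while the lowest young untreated point of every gene is mouse 2 (Pnlip at 53028 CPM).

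With caerulein, 6 of the 10 genes fell in young mice and the same 6 fell in aged mice: Pnlip, Cel, Clps, Pla2g1b, Amy2b and Rnase1. None rose at either age in edgeR's quasi-likelihood test (adjusted p below 0.05, Benjamini-Hochberg over all genes), in a setting where 52.3% of all genes were called in young mice (24.7% lower, 27.5% higher) and 48.2% in aged mice (21.2% lower, 27% higher). The median log2 fold change of the 10 was -0.97 in young and -1.09 in aged mice, beside -0.06 and 0.07 over all genes tested. Libraries of treated and untreated mice did not overlap for 5 of the 10 genes in young mice (57.3% of all genes tested) and for all 10 in aged mice (71.2%). Values below are TMM-scaled CPM, counts over the scaled library total, listed by mouse number, and fold changes are log2 ± SE from the same fit. The p-values measure the spread between these mice, 1 library each, pooled in 1 model over all 4 groups. Libraries outside a comparison therefore also move its p-values. The SE was derived from the log2 fold change and the F statistic of that test.

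Clps, which encodes colipase, had the lowest log2 fold change of the 6 fat-digestion genes at both ages. It stood at 27699, 18655 and 27863 CPM in young untreated, 33897 and 37810 in aged untreated (mice 2 and 3), 5886, 6217 and 6823 in young caerulein and 9147, 8477 and 6882 in aged caerulein mice. The highest treated library, at 9147 CPM, was below the lowest untreated one, at 18655 CPM. The log2 fold change was -1.97 ± 0.20 in young mice (edgeR adjusted p = 1.35e-05), a 3.92-fold drop, and -2.13 ± 0.22 in aged mice (edgeR adjusted p = 1.47e-05), a 4.39-fold drop.

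Cel, the carboxyl ester lipase that also takes cholesteryl esters, stood at 55229, 30065 and 53821 CPM in young untreated, 61421 and 64021 in aged untreated, 16636, 17350 and 19029 in young caerulein and 27116, 25686 and 24760 in aged caerulein mice. The treated libraries lay below the untreated ones at each age, and the 3 aged treated libraries all lay above the 3 young treated ones. The change with caerulein was -1.39 ± 0.23 (edgeR adjusted p = 0.000406) in young and -1.28 ± 0.25 (edgeR adjusted p = 0.00128) in aged mice.

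Pnlip, the main triglyceride lipase, stood at 102329, 53028 and 101281 CPM in young untreated, 77527 and 88748 in aged untreated, 46232, 52731 and 57792 in young caerulein and 51777, 51631 and 40797 in aged caerulein mice. Treated and untreated libraries were apart in aged mice, whereas in young mice untreated mouse 2 lay among the treated ones. Pnlip fell by 0.71 ± 0.25 on the log2 scale in young (edgeR adjusted p = 0.0355) and by 0.79 ± 0.28 in aged mice (edgeR adjusted p = 0.0359). The call in young mice was lost with the mouse number as a block (-0.68, edgeR adjusted p = 0.0746), with no filter on low counts (-0.69, edgeR adjusted p = 0.301) and with only the groups compared (-0.73, edgeR adjusted p = 0.093). In aged mice it was lost with no filter (-0.76, edgeR adjusted p = 0.346) and with the mouse number as a block. At both ages it was lost when only library totals set the scale. At each age it passed in 4 of 11 fits that left out 1 library. In young mice those 4 were the fits without young untreated mouse 2 (-1.01, edgeR adjusted p = 1.43e-05) or without any 1 aged caerulein mouse, and the highest adjusted p was 0.116. In aged mice they were the fits without any 1 young untreated mouse or without young caerulein mouse 3, and the highest adjusted p was 0.200.

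Pla2g1b, the pancreatic phospholipase A2, stood at 2186, 848 and 2027 CPM in young untreated, 2197 and 2526 in aged untreated, 902, 941 and 1105 in young caerulein and 1155, 1263 and 1066 in aged caerulein mice. Again young untreated mouse 2 lay with the treated libraries, in this case below all of them. It fell by 0.78 ± 0.28 in young (edgeR adjusted p = 0.0392) and by 1.02 ± 0.31 in aged mice (edgeR adjusted p = 0.0185). With the mouse number as a block the young call was lost (-0.73, edgeR adjusted p = 0.0628), as it was with only the groups compared (-0.80, edgeR adjusted p = 0.0921). The call held in 2 of 11 fits without 1 library in young mice (without young untreated mouse 2 or aged caerulein mouse 3, the others reaching an adjusted p of 0.136). It held in 8 of 11 in aged mice, failing without aged caerulein mouse 3 or without either aged untreated mouse (highest adjusted p 0.129).

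The 2 lipase-related genes beside Pnlip on chromosome 19 did not pass the test at either age. Pnliprp1, whose product resembles pancreatic lipase but has little lipase activity of its own, stood at 29107, 14528 and 29353 CPM in young untreated, 32788 and 28082 in aged untreated, 20082, 21400 and 21461 in young caerulein and 22706, 20195 and 17201 in aged caerulein mice. Pnliprp2, a lipase that also accepts galactolipids and phospholipids, stood at 4847, 2360 and 4935 CPM in young untreated, 5926 and 5863 in aged untreated, 3634, 3921 and 4030 in young caerulein and 4606, 4668 and 3595 in aged caerulein mice. For both genes treated libraries lay below untreated ones except for young untreated mouse 2, which was lowest of all 11. The log2 differences were -0.21 ± 0.25 (edgeR adjusted p = 0.495) and -0.07 ± 0.25 (edgeR adjusted p = 0.837) in young mice, and -0.60 ± 0.28 (edgeR adjusted p = 0.0963) and -0.46 ± 0.27 (edgeR adjusted p = 0.194) in aged mice. Without young untreated mouse 2 both passed as lower, in young mice at -0.53 (edgeR adjusted p = 0.00198) and -0.39 (edgeR adjusted p = 0.0122), and in aged mice at -0.67 (edgeR adjusted p = 0.000307) and -0.52 (edgeR adjusted p = 0.00184).

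Rnase1, the secreted pancreatic ribonuclease, had the lowest log2 fold change of the 10 genes at both ages. It stood at 24365, 14544 and 24561 CPM in young untreated, 28592 and 29173 in aged untreated, 4458, 4666 and 5461 in young caerulein and 5215, 6093 and 4070 in aged caerulein mice. The highest treated library, at 6093 CPM, was below the lowest untreated one, at 14544 CPM. The log2 fold change was -2.12 ± 0.24 in young mice (edgeR adjusted p = 2.52e-05), a 4.35-fold drop, and -2.49 ± 0.26 in aged mice (edgeR adjusted p = 1.51e-05), a 5.63-fold drop. The calls of Rnase1, Clps and Cel held at both ages in all 11 fits that left out 1 library.

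**Figure D2:**
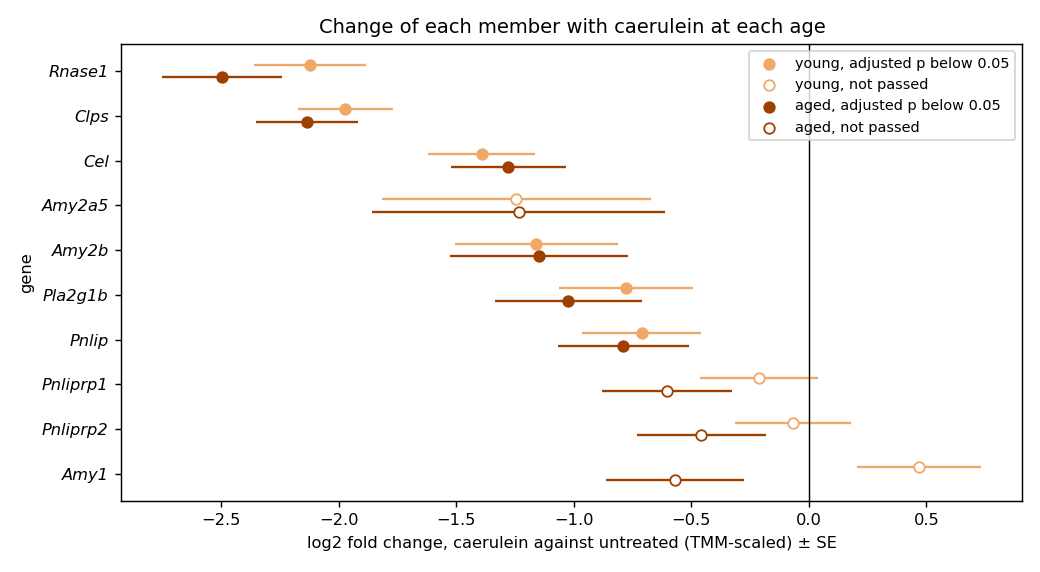
Log2 fold change of caerulein against untreated (horizontal axis, ± SE) for each gene in young and aged mice, filled where the adjusted p was below 0.05. Rnase1, Clps and Cel lie farthest from 0 among the passing genes at both ages (-2.12, -1.97 and -1.39 in young mice), and Amy1 is on opposite sides of 0 at the 2 ages with neither value passing.

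How many of the 10 passed depended on the libraries and on their scaling. Without young untreated mouse 2, 9 of the 10 (all but Amy1) were lower in young mice, where 3637 of 13567 genes were called lower, and all 10 were lower in aged mice, where 3748 were. When only library totals set the scale, the all-gene median shifted from -0.06 to 0.43 in young and from 0.07 to 0.69 in aged mice, and the genes called lower shrank to Cel, Clps and Rnase1 at both ages. With that scaling the log2 changes of these 3 in young mice were -0.82, -1.42 and -1.56, against that raised median. Pnliprp1 (0.37, edgeR adjusted p = 0.0339), Pnliprp2 (0.52, edgeR adjusted p = 0.00587) and Amy1 (1.06, edgeR adjusted p = 0.000852) were then called higher in young mice, near or above the shifted median. Over all genes 5314 were then called higher and 1269 lower in young mice, against 3888 and 3488 with TMM, and 5451 and 1074 in aged mice, against 3806 and 2998. DESeq2 size factors, and TMM factors set without secretory genes, gave the same directions as TMM for all 10 genes at both ages. Of the 10 genes, 6 had an adjusted p below 0.05 in the authors' deposited table for young mice and 9 for aged mice, where Amy2a5 alone did not (log2 fold change -1.27, adjusted p = 0.243 in the authors' deposited table). How many of all genes passed there was not counted, so these counts stand without a background.

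**Figure D3:**
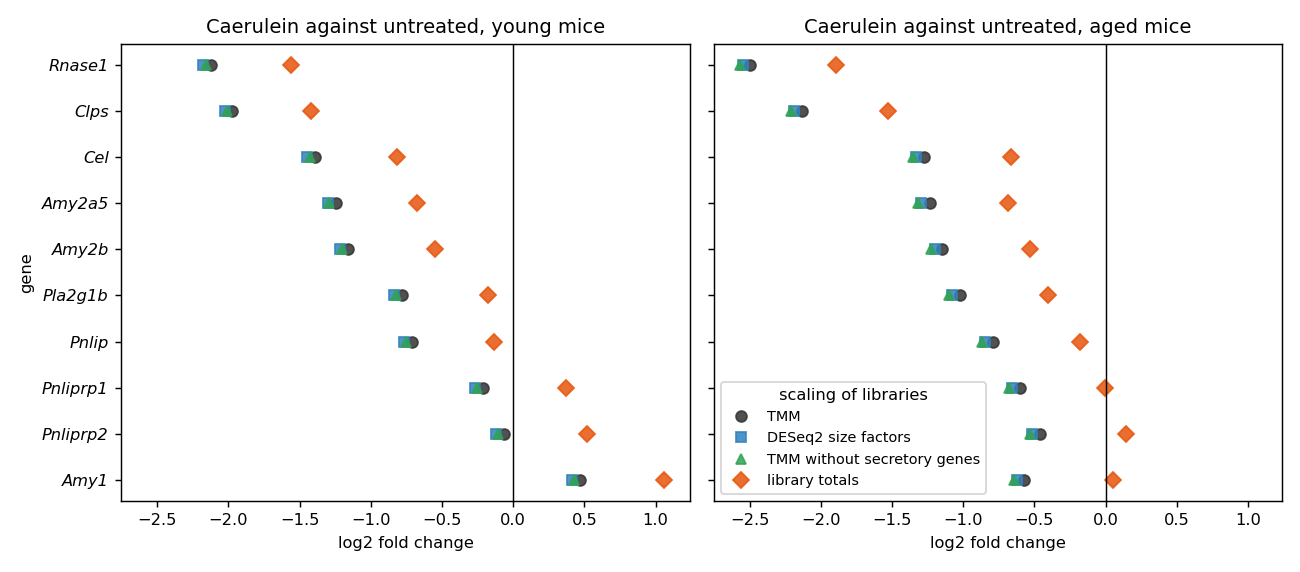
Log2 fold change of caerulein against untreated for each gene under 4 ways of scaling libraries, young mice left and aged mice right. Library totals alone (diamonds) shift every gene upwards, for example Rnase1 from -2.12 to -1.56 in young mice, while the other 3 scalings lie close together.

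The amylase genes form a cluster on chromosome 3. Amy1, known as the salivary amylase, lies at 113555710 to 113606699, Amy2a5, a pancreatic amylase, at 113247178 to 113258837, and Amy2b, typed as an unprocessed pseudogene in the deposited annotation, at 113147656 to 113156727 (mm10, all on the minus strand). Between Amy2a5 and Amy1 lie Amy2a4, Amy2a3, Amy2a2 and Amy2a1. Their transcripts are partly identical: of all 150-base windows, 100% of those of Amy2a2, Amy2a3 and Amy2a4 also occurred in another amylase, as did 94.2% of Amy2a1, 41.8% of Amy2a5 and 3.92% of Amy2b. Amy1 shared none with the other amylases but 29.7% with Rnpc3, a spliceosome gene that overlaps its 5′ end. The 7 genes for fat and RNA digestion shared no such window with any other gene. How reads that fit several genes were counted is not given in the sources used here.

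Amy2b stood at 21065, 8194 and 19563 CPM in young untreated, 16448 and 27782 in aged untreated, 7600, 7177 and 7073 in young caerulein and 12933, 9798 and 7231 in aged caerulein mice. Treated and untreated libraries were apart at each age, with young untreated mouse 2 closest to the treated ones. Amy2b fell by 1.16 ± 0.35 in young (edgeR adjusted p = 0.0161) and by 1.15 ± 0.38 in aged mice (edgeR adjusted p = 0.0265). The call failed in 2 of 11 fits without 1 library in young mice (without young caerulein mouse 3 or young untreated mouse 1, adjusted p up to 0.0540) and in 3 of 11 in aged mice (without aged caerulein mouse 2 or 3 or aged untreated mouse 3, adjusted p up to 0.295).

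Amy2a5 stood at 6181, 4867 and 11407 CPM in young untreated, 14002 and 10987 in aged untreated, 1775, 4772 and 2931 in young caerulein and 10688, 2132 and 3103 in aged caerulein mice. The aged caerulein libraries differed 5.01-fold among themselves, mouse 1 standing just below the aged untreated range. The log2 differences, -1.24 ± 0.57 in young (edgeR adjusted p = 0.0888) and -1.24 ± 0.62 in aged mice (edgeR adjusted p = 0.126), did not pass. They passed in 4 alternatives at each age. These were fits without young untreated mouse 2 (-1.53, edgeR adjusted p = 0.0237 in young, and -1.31, edgeR adjusted p = 0.0479 in aged mice) or without aged caerulein mouse 1 (-1.25, edgeR adjusted p = 0.0258 in young, and -2.26, edgeR adjusted p = 0.0052 in aged mice), with no filter on low counts (edgeR adjusted p = 0.0072 and 0.0192) and with only the groups compared (edgeR adjusted p = 0.0497 and 0.0416).

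Amy1 stood at 96.6, 49.0 and 106 CPM in young untreated, 151 and 195 in aged untreated, 112, 144 and 92.8 in young caerulein and 116, 133 and 101 in aged caerulein mice. Young treated and untreated libraries overlapped, while the aged untreated libraries lay above all others. The differences with caerulein were 0.47 ± 0.27 (edgeR adjusted p = 0.159) in young and -0.57 ± 0.29 (edgeR adjusted p = 0.133) in aged mice, and the latter passed without young untreated mouse 2 (-0.64, edgeR adjusted p = 0.00514). Salivary gland markers were at or near 0: 9 of 12 had no count in any library and their sum was at most 0.391 CPM. Rnpc3, which shares sequence with Amy1, stood at 3.51 to 8.37 CPM over all libraries. It was higher with caerulein in young mice (0.73 ± 0.20, edgeR adjusted p = 0.0106) and not called in aged mice (0.28 ± 0.23, edgeR adjusted p = 0.334), and its part in the Amy1 counts was not tested.

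Because the split between near-identical amylases rests on the counting, the rows were also summed. The sum of the 3 described genes removes little of that split. Amy2a5 shared 1.47% of its windows with Amy2b and none with Amy1. It shared 41.8% with each of Amy2a2, Amy2a3 and Amy2a4, which only the sum over all 7 amylase genes takes in. Amy1, Amy2a5 and Amy2b together stood at 27343, 13110 and 31077 CPM in young untreated, 30601 and 38964 in aged untreated, 9487, 12093 and 10097 in young caerulein and 23737, 12063 and 10435 in aged caerulein mice. The groups did not overlap at either age, and aged caerulein mouse 1 stood well above the other 5 treated mice. The sum fell by 1.18 ± 0.36 in young (edgeR adjusted p = 0.0179) and by 1.17 ± 0.39 in aged mice (edgeR adjusted p = 0.0279). Over all 7 amylase genes, an addition made after seeing the data, it fell by 1.02 ± 0.33 (edgeR adjusted p = 0.0242) and by 1.10 ± 0.36 (edgeR adjusted p = 0.0273). The call of the sum of 3 was lost in young mice without young untreated mouse 3 or young caerulein mouse 1 or 3 (edgeR adjusted p up to 0.0616). It was lost in aged mice without either aged untreated mouse or aged caerulein mouse 2 or 3 (edgeR adjusted p up to 0.181).

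**Figure D4:**
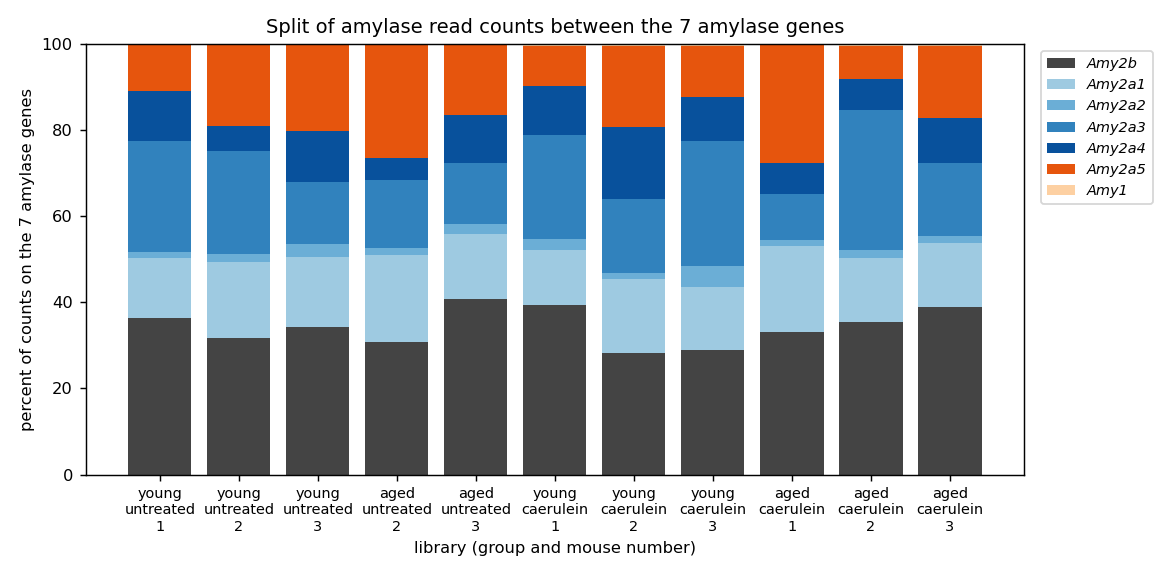
Share of the counts on the 7 amylase genes that each gene holds (percent, stacked) in every library. Amy2b holds 28.2% to 40.7% throughout, while Amy2a5 runs from 7.73% to 27.3% within the aged caerulein group alone, and Amy1 is at most 0.578%.

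Amy2a2 and Amy2a3, all of whose windows are shared, held different shares of amylase counts, 2.05% ± 0.931 (SD, n = 3) and 21.3% ± 6.15 (n = 3) in young untreated libraries. The pooled SD of log2 CPM within groups was 0.83 for Amy2a5, 0.51 for Amy2b and 0.48 for the sum of 7, beside 0.22 for Clps and 0.27 for Cel.

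Age alone moved none of the 10 genes past the test. In untreated mice 0 of 10 were called by edgeR's quasi-likelihood test, where 0.0921% of all genes were (0.0567% higher and 0.0354% lower). DESeq2 also called 0 of the 10, and 36 higher and 27 lower of all 14113 genes. At an unadjusted p below 0.05, 2 of the 10 were higher in aged mice in the edgeR fit, where 1320 of 14113 genes passed in either direction. These were Amy1 (1.04 ± 0.29, edgeR adjusted p = 0.456) and Clps (0.54 ± 0.22, edgeR adjusted p = 0.531). Libraries of young and aged untreated mice did not overlap for 6 of the 10 (23.2% of all genes tested), Pnliprp2, Cel, Clps, Pla2g1b, Amy1 and Rnase1, each higher in the aged mice. The remaining log2 differences, aged minus young, of the genes other than Amy1 and Clps ran from -0.04 ± 0.28 for Pnlip to 0.74 ± 0.62 for Amy2a5. After caerulein edgeR called 0 of 10, against 3.73% of all genes (2.46% higher and 1.27% lower). DESeq2 also called 0 of the 10, and 590 higher and 323 lower of all 14113 genes. Cel was the only 1 of the 10 at an unadjusted edgeR p below 0.05, where 2573 of 14113 genes passed in either direction. Cel stood at 25854 ± 1187 CPM (SD, n = 3) in aged and 17672 ± 1229 (n = 3) in young treated mice (0.55 ± 0.22, edgeR adjusted p = 0.218). Of the 10 genes, 0 had an adjusted p below 0.05 by age in untreated mice in the authors' deposited table, but 3 did after caerulein, all higher in aged mice. The share of all genes that passed by age in the authors' values was not counted, and the 3.73% above is from the edgeR fit. The log2 fold changes in the authors' deposited table were 0.53 for Cel (adjusted p = 8.35e-08), 0.35 for Clps (adjusted p = 0.0148) and 0.43 for Amy2b (adjusted p = 0.0283). Libraries of the 2 ages did not overlap for Cel and Clps after caerulein (2 of 10, against 30.9% of all genes tested). Without young untreated mouse 2, Cel passed as higher in aged treated mice (0.52, edgeR adjusted p = 0.00202), where 1065 of 13567 genes were called higher.

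The caerulein responses of the 2 ages did not differ by the edgeR test for any of the 10 genes (0.0142% of all genes were called, 0.00709% higher and 0.00709% lower). DESeq2 also called 0 of the 10, and 179 higher and 100 lower of all 14113 genes. Amy1 was the 1 gene of the 10 at an unadjusted edgeR p below 0.05 (aged minus young response -1.04 ± 0.40, edgeR adjusted p = 0.340). Over all genes 1758 of 14113 had such a p. For Rnase1 the difference was -0.37 ± 0.34, for Clps -0.16 ± 0.29, for Cel 0.11 ± 0.33 and for Pnlip -0.08 ± 0.38, none of which could be told from 0 with these mice.

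The balance among the enzymes was examined through counts of each gene per count of Pnlip in the same library, which does not depend on how libraries are scaled. Differences are mean log2 ratios averaged over the other factor, tested by a 2-sided exact permutation test over libraries (200 arrangements, smallest possible p 0.005, Benjamini-Hochberg over 14 tests). All 7 ratios share Pnlip as denominator.

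Relative to Pnlip, colipase and ribonuclease transcripts fell with caerulein and the 2 lipase-related transcripts rose. Clps went from 0.299 ± 0.0456 (SD, n = 3) to 0.121 ± 0.00539 (n = 3) counts per Pnlip count in young mice and from 0.432 ± 0.00791 (n = 2) to 0.170 ± 0.00633 (n = 3) in aged mice. Treated and untreated libraries did not overlap, and the mean log2 difference was -1.32 (exact permutation, adjusted p = 0.00778). Rnase1 went from 0.252 ± 0.0197 (n = 3) to 0.0931 ± 0.00414 (n = 3) in young and from 0.349 ± 0.0283 (n = 2) to 0.106 ± 0.0103 (n = 3) in aged mice, a difference of -1.58 (exact permutation, adjusted p = 0.00778). Cel went from 0.546 ± 0.0186 (n = 3) to 0.339 ± 0.0177 (n = 3) in young and from 0.757 ± 0.0501 (n = 2) to 0.543 ± 0.0571 (n = 3) in aged mice, a difference of -0.59 (exact permutation, adjusted p = 0.00778).

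Pnliprp2 went the other way, from 0.0469 ± 0.00215 (n = 3) to 0.0742 ± 0.00443 (n = 3) in young and from 0.0713 ± 0.00733 (n = 2) to 0.0892 ± 0.00116 (n = 3) in aged mice, a difference of 0.50 (exact permutation, adjusted p = 0.00778). Pnliprp1 rose relative to Pnlip by 0.35 (exact permutation, adjusted p = 0.0318). Its ratio was 0.283 ± 0.00806 (n = 3) and 0.404 ± 0.0316 (n = 3) in young untreated and treated mice, and 0.370 ± 0.0753 (n = 2) and 0.417 ± 0.024 (n = 3) in aged mice, where the groups overlapped. The Pla2g1b ratio differed by -0.12 (exact permutation, adjusted p = 0.2) and that of summed amylase by -0.45 (exact permutation, adjusted p = 0.0754), and neither passed. The former passed without young untreated mouse 2 (-0.18, exact permutation, adjusted p = 0.0255). The latter passed without aged caerulein mouse 1 (-0.60, exact permutation, adjusted p = 0.0212) and over all 7 amylase genes (-0.32, exact permutation, adjusted p = 0.0485).

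The size of these differences depended on the denominator. Per count of the summed chymotrypsins, elastases and carboxypeptidases, the difference of Cel with caerulein was -0.28 (exact permutation, adjusted p = 0.03), and its aged groups overlapped, with 0.103 in aged untreated mouse 3 and 0.105 in aged caerulein mouse 3. Pnliprp1 then rose by 0.66 and Pnliprp2 by 0.80, while Clps differed by -1.01 and Rnase1 by -1.27 (exact permutation, adjusted p = 0.0117 each). Pla2g1b (0.19, exact permutation, adjusted p = 0.165) and summed amylase (-0.14, exact permutation, adjusted p = 0.565) did not pass.

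**Figure D5:**
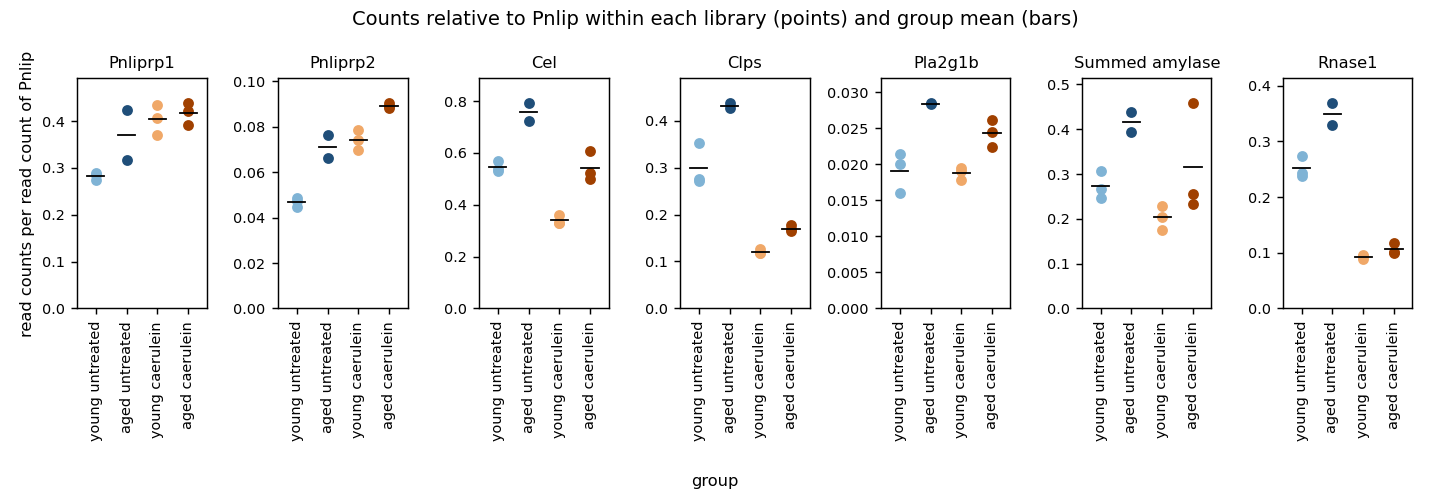
Counts of each gene per count of Pnlip in the same library (vertical axes start at 0), by group, with a short bar at the group mean. Clps, Cel and Rnase1 lie lower with caerulein at each age and Pnliprp2 higher, and the aged group means lie above the young ones in all 7 panels for both treatments (Clps 0.432 against 0.299 in untreated mice).

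By age, all 7 ratios to Pnlip were higher in aged mice. The mean log2 differences were 0.59 for summed amylase, 0.57 for Cel, 0.47 for Pla2g1b, 0.43 for Pnliprp2 and 0.33 for Rnase1 (exact permutation, adjusted p = 0.00778 each), 0.51 for Clps (exact permutation, adjusted p = 0.014) and 0.21 for Pnliprp1 (exact permutation, adjusted p = 0.0408). With the same protease sum as denominator in place of Pnlip, Cel (0.34) and Clps (0.29) kept the call (exact permutation, adjusted p = 0.0117 each) and the other 5 did not pass, Pnliprp1 being at -0.02. Pnlip itself, set against that protease sum in a ratio added after seeing the data, was lower in aged mice by 0.23 (exact permutation, adjusted p = 0.02 over 2 tests) and higher with caerulein by 0.31 (exact permutation, adjusted p = 0.01). Its age difference had an adjusted p of up to 0.075 when 1 library was left out, 0.075 without aged untreated mouse 3 and 0.05 without young untreated mouse 1 or 3. The Pnliprp1 ratio passed with age in 2 of 11 sets that left out 1 library, those without young caerulein mouse 1 or aged caerulein mouse 2 (exact permutation, adjusted p = 0.0255 each, the others up to 0.108). With caerulein it passed in 9 of 11, failing without aged untreated mouse 3 (0.25, adjusted p = 0.0875) or aged caerulein mouse 1 (0.33, adjusted p = 0.0583).

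Other genes of the same kinds were counted from fixed lists. Each caerulein count of these lists, and of the transcription factors below, stands against the share over all genes. That share was 24.7% lower and 27.5% higher in young mice, and 21.2% lower and 27% higher in aged mice. Of 10 chymotrypsins, elastases and carboxypeptidases, the other secreted hydrolases of the acinar cell, 10 fell at each age, with medians of -1.22 in young and -1.21 in aged mice. Cela3a, an elastase, fell by 1.81 ± 0.19 (edgeR adjusted p = 1.37e-05) and Ctrc, chymotrypsin C, by 1.79 ± 0.21 (edgeR adjusted p = 3.11e-05) in young mice. Of 7 trypsinogen and trypsin inhibitor genes, 4 were lower in young mice, and 3 lower and 1 higher in aged mice.

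Among 13 other lipases and their cofactors, 10 were tested. In young mice 5 fell and 1 rose, and in aged mice 3 fell and 1 rose. The gene that rose was Mgll, monoacylglycerol lipase, at both ages (0.70 ± 0.14, edgeR adjusted p = 0.00177, and 1.09 ± 0.16, edgeR adjusted p = 0.000253). Ces1d, a carboxylesterase, fell by 1.64 ± 0.21 in young mice (edgeR adjusted p = 6.79e-05) and by 1.16 ± 0.23 in aged mice (edgeR adjusted p = 0.00141). Of 6 relatives of pancreatic lipase 4 were tested, and 1 was called at each age: Pla1a, a phosphatidylserine lipase, was higher in young mice (1.54 ± 0.35, edgeR adjusted p = 0.00356) and Lpl, lipoprotein lipase, lower in aged mice (-0.92 ± 0.33, edgeR adjusted p = 0.038).

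Of 13 ribonuclease A family genes and their inhibitor, 3 were tested, of which 1 rose and 1 fell in young mice and 1 rose and 2 fell in aged mice. Rnase4 fell with Rnase1, by 1.28 ± 0.25 in young (edgeR adjusted p = 0.00162) and by 1.92 ± 0.28 in aged mice (edgeR adjusted p = 0.000193). Rnh1, the intracellular inhibitor that binds pancreatic-type ribonucleases, rose by 0.72 ± 0.18 (edgeR adjusted p = 0.00562) and 0.90 ± 0.20 (edgeR adjusted p = 0.00354). Ang, which encodes the ribonuclease angiogenin, was the third: its log2 difference was 0.75 ± 0.34 in young mice (edgeR adjusted p = 0.0831) and fell by 1.18 ± 0.38 in aged mice (edgeR adjusted p = 0.0229). After caerulein Ang was the 1 gene of the list that was lower in aged than in young mice (-1.43 ± 0.35, edgeR adjusted p = 0.047), and the difference between its responses missed the threshold (-1.94 ± 0.51, edgeR adjusted p = 0.182). Of 8 other glycosidases 5 were tested, and 4 fell at each age. Of 11 other secreted phospholipase A2 genes and their receptor 5 were tested, 2 falling in young and 1 in aged mice.

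Among 12 transcription factors of the acinar cell, 6 were lower at each age, with 3 higher in young and 2 in aged mice. Rbpjl, the PTF1 subunit of mature acinar cells, fell by 2.91 ± 0.20 in young (edgeR adjusted p = 7.83e-07) and by 2.73 ± 0.21 in aged mice (edgeR adjusted p = 2.17e-06). Ptf1a, the subunit that reads the E-box, rose with caerulein in young mice (1.51 ± 0.30, edgeR adjusted p = 0.0015) and was not called in aged mice (-0.04 ± 0.34, edgeR adjusted p = 0.934). After caerulein it was lower in aged than in young mice (-1.63 ± 0.30, edgeR adjusted p = 0.0134), while the test comparing the responses of both ages was not passed (-1.54 ± 0.45, edgeR adjusted p = 0.204).

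Aqp12, Cela1, Echs1, Deaf1 and Cpa1 were the 5 genes outside the 10 whose pattern over the 11 libraries was closest to the median profile of the 10, among 4987 candidates. The measure was the root mean square distance of centred log2 CPM, 0.116 for Aqp12, 0.130 for Cela1, 0.149 for Echs1, 0.157 for Deaf1 and 0.161 for Cpa1. Of the 10 themselves Pla2g1b (0.153) and Amy2b (0.188) lay nearest to their own median profile, and Rnase1 (0.684) and Amy2a5 (0.649) farthest. Aqp12 encodes an aquaporin of acinar cells, Cela1 an elastase, and Cpa1 a carboxypeptidase.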

How the data were processed

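Poly(A) RNA of 11 mouse pancreas libraries was measured. The deposited counts are raw read counts per gene; HISAT2 2.0.5, featureCounts 1.5.0-p3 and mm10 are named in the submitters' processing notes, and no source used here gives the annotation release or the strand setting. The authors' FPKM values were used to order genes per length. The authors' deposited tables also hold normalised counts (signal), log2 fold changes and p-values, of which the log2 fold changes and adjusted p-values are quoted where named.

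Genes were filtered with filterByExpr (minimum count 10) and scaled by TMM, and 1 model with 4 groups was fitted by edgeR 4.0.16 (quasi-likelihood F test, R 4.3.3), with Benjamini-Hochberg adjustment over 14113 genes at 0.05. Ratios used counts and exact permutation (Python 3.11.15). No 2 libraries were closer than a root mean square log2 distance of 0.526, so none was treated as a duplicate. The test was also run on simulated counts in which few genes changed, evenly in both directions. Such counts lack the broad caerulein change of these data, so that run cannot speak to the choice of scaling. Members and lists were chosen with earlier results of these data known. All 10 genes are named, with up to 4 genes of each other list that had the smallest p and at least 5 CPM, and the genes of closest pattern among those of at least 10 CPM (prior count 2), of which the rule took 6 and 1 is not reported here.

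Mouse numbers come from the labels, which do not say that they pair mice. In the young caerulein comparison the deviations of same-numbered mice had correlations of 0.106, 0.149 and 0.114. Mice of different numbers were not compared, so these values cannot show whether the numbers pair mice. The replicate block is given where it changed a call. Alternatives were DESeq2 1.42.0, other scalings and filters, fits of the compared groups only, the block, another ratio denominator and leaving out each library.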

Additional observations from a re-analysis of the deposited data

How the results depend on the processing

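With only 2 aged untreated mice, small differences by age could not be resolved. The calls of Cel, Clps and Rnase1 with caerulein kept their direction and their side of the threshold under every alternative run. Leaving out 1 library gave 3 to 9 genes lower in young and 3 to 10 in aged mice, and 0 to 1 higher with age after caerulein. Over all 13567 to 15667 genes tested, those fits called 2697 to 3637 lower in young and 1970 to 3748 in aged mice. They called 109 to 1065 higher with age after caerulein. Library totals gave 3 lower at each age and 3 higher in young mice, and fitting only the groups compared gave 10 lower in aged mice, where 3716 of 12737 genes were lower. Without a filter on low counts 1 gene (Amy1) was higher with age in untreated mice, where 72 of 27020 genes were higher and 635 lower, against 8 and 5 of 14113 with the filter. After caerulein 1 gene (Cel) was higher with age with library totals (99 of 14113 genes) or only the groups compared (971 of 12439). Without the filter 1 gene (Amy1) also passed as lower in the difference between responses, where 547 genes were higher and 127 lower, against 1 and 1 with it.

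With library totals the differences turned to 0.37 (Pnliprp1) and 0.52 (Pnliprp2) in young and 0.14 (Pnliprp2) and 0.051 (Amy1) in aged mice, and by age after caerulein to -0.12 (Amy1) and -0.047 (Rnase1). That Amy1 difference, near 0, was also -0.0073 with a minimum count of 50, -0.017 with no filter, -0.025 without secretory genes in the scaling and -0.017 with only the groups compared. In the difference between responses, also near 0, Amy2a5 was -0.0090 with library totals and -0.026 without secretory genes, and Amy2b -0.022 without secretory genes. Summed amylase there was -0.0028, -0.025 and, over 7 genes, -0.076, and with library totals it fell by 0.58 at each age (edgeR adjusted p = 0.0679 and 0.0949).

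The replicate block lost the calls of Pnlip (-0.68) and Pla2g1b (-0.73) in young mice. In aged mice, where the correlations of same-numbered mice were 0.005 and 0.130, the block gave -0.82 for Pnlip (edgeR adjusted p = 0.0652). By age the correlations were 0.002 and -0.022 in untreated and -0.207, 0.104 and -0.046 in treated mice. With the block the age difference of Pnlip in untreated mice was 0.020, and the differences between responses were -0.29 (Amy2a5), -0.19 (Amy2b) and -0.26 (summed amylase). It changed no other call of the 10 genes with caerulein.

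With the protease sum as denominator the age differences were -0.018 for Pnliprp1, 0.21 for Pnliprp2, 0.25 for Pla2g1b, 0.37 for summed amylase and 0.10 for Rnase1, and the caerulein difference of Pla2g1b was 0.19. Over 7 genes the amylase ratio with caerulein was -0.32 (exact permutation, adjusted p = 0.0485).

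Without 1 library, summed amylase ran from -1.52 to -0.95 in young and -1.63 to -0.96 in aged mice, 0.24 to 0.78 and 0.092 to 0.76 by age, and -0.45 to 0.28 between responses. Ratios ran from 0.25 to 0.45 (Pnliprp1, caerulein), 0.11 to 0.31 (Pnliprp1, age), -0.18 to -0.078 (Pla2g1b, caerulein) and -0.60 to -0.36 (amylase, caerulein), and Pnlip to the protease sum from -0.28 to -0.20 by age. Values that changed sign ran from -0.39 to 0.093 (Pnliprp2, young caerulein), -0.30 to 0.11 (Pnlip, age untreated), and by age after caerulein -0.13 to 0.19 (Amy1), -0.27 to 1.17 (Amy2a5), -0.16 to 0.032 (Pnliprp1) and -0.067 to 0.22 (Rnase1). Between responses they ran from -1.01 to 0.43 (Amy2a5), -0.32 to 0.44 (Amy2b), -0.033 to 0.33 (Cel), -0.48 to 0.063 (Pla2g1b) and -0.23 to 0.16 (Pnlip). The cause of these changes was not tested.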

Other observations

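A long noncoding RNA beside the lipase genes, 1810007D17Rik (chromosome 19, 58606329 to 58629753, plus strand, mm10), ends 40612 bases before the start of Pnlip and was picked after its values were seen. It stood at 3.77, 3.32 and 3.22 CPM in young untreated, 124 and 102 in aged untreated, 0.784, 0.751 and 0.988 in young caerulein and 54.8, 49.3 and 42.9 in aged caerulein mice. Every aged library lay above every young one. The log2 difference with age was 5.04 ± 0.16 in untreated (edgeR adjusted p = 6.06e-08) and 5.87 ± 0.17 in treated mice (edgeR adjusted p = 2.59e-08), whereas Pnlip differed by -0.04 and -0.12. With caerulein it fell by 2.03 ± 0.18 in young (edgeR adjusted p = 4.3e-06) and by 1.21 ± 0.14 in aged mice (edgeR adjusted p = 4e-05).

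The pseudogene 1810018F18Rik, between Pnlip and Pnliprp1 (58698917 to 58715770), also picked after its values were seen, fell with caerulein by 1.05 ± 0.37 in young (edgeR adjusted p = 0.0333) and by 2.45 ± 0.41 in aged mice (edgeR adjusted p = 0.000503). The difference between these responses did not pass (-1.41 ± 0.55, edgeR adjusted p = 0.342).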
